A study of Caenorhabditis elegans with 30 samples.

Results

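The 10 genes described here, tir-1, nsy-1, sek-1, jnk-1, msi-1, crh-1, hpl-2, magi-1, ncs-1 and glr-1, are genes of Caenorhabditis elegans with roles in forgetting, memory or the synapse. They were taken by name from the gene tables, which hold 46904 genes in a lithium experiment and 46778 in an ice experiment, and all 10 were found in both. The worms were wild-type N2, fed on E. coli OP-50, in a study of cold, lithium and the loss of odour memories, and polyadenylated RNA of whole worms was sequenced in 30 libraries. In the lithium experiment, untrained worms that were not placed on ice spent a night at 20 C or at 15 C on plain NGM agar or on plates with 15 mM LiCl, with 3 libraries in each of 4 groups. In the ice experiment, naive worms and worms conditioned with the odorant butanone came from 20 C, from a night at 15 C, or from a night at 15 C followed by 2 hours at 20 C (shifted worms). All of these had 2 hours on ice and no lithium, with 3 libraries in each of 6 groups. By the study's account, worms from 20 C are cold sensitive and keep an odour memory longer on ice, and worms from 15 C are cold tolerant and do not. Because whole worms were sequenced, a lower level can mean fewer cells of a type or less RNA per cell, and the data do not tell these apart.

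Forgetting in C. elegans is an active process. TIR-1, a TIR-domain adaptor and the homolog of SARM1, acts above a MAP kinase cascade in which NSY-1 is the MAP kinase kinase kinase, SEK-1 a MAP kinase kinase and JNK-1 a c-Jun N-terminal kinase, and worms without tir-1 or jnk-1 hold an odour memory for longer. MSI-1, the musashi RNA-binding protein, promotes forgetting by repressing translation of subunits of the Arp2/3 actin-branching complex. CRH-1 is the worm CREB, the transcription factor needed for long-term associative memory, and HPL-2 is a heterochromatin protein 1 that reads methylated histones and works in the germline and in somatic cells. At the synapse, GLR-1 is an AMPA-type glutamate receptor subunit of the command interneurons, MAGI-1 a membrane-associated guanylate kinase scaffold, and NCS-1 a calcium sensor used in memory of cultivation temperature.

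Coordinates are from the Ensembl annotation of WBcel235, the assembly also named ce11, and all 10 are protein-coding. On chromosome III lie tir-1 (3869590 to 3901642, minus strand, 13 annotated transcripts), msi-1 (3964648 to 3976391, minus), glr-1 (8584163 to 8588642, minus), hpl-2 (10752195 to 10755530, minus) and crh-1 (11657767 to 11693981, plus, 7 transcripts). The gene nsy-1 lies on chromosome II (5022757 to 5029999, plus). On chromosome IV are jnk-1 (6957641 to 6963719, plus) and magi-1 (11715039 to 11729281, plus), and on X are sek-1 (7816734 to 7821036, plus) and ncs-1 (960452 to 963271, minus). Counts were made per gene, so isoforms of tir-1 and crh-1 are not told apart. Of the 10, ncs-1 shares the longest stretch with another gene, 134 bases with chil-10 on the opposite strand, out of 854 exonic bases.

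Library totals were 10111055 to 27794834 counts for lithium-experiment libraries and 9873554 to 30054357 counts on ice. The lowest chi-square per degree of freedom between replicates was 23.3, so no replicate pair was as close as counting error alone would make it. The replicates on ice are called biological by the study, and nothing states whether replicates came from separate cultures, so p-values measure the spread between these libraries. The whole-worm label was checked with 6 marker lists (neuron, muscle, pharynx, intestine, epidermis, germline). All of them were present in every library, and the markers at 0 in some library were rgef-1 among neuron markers, ceh-22, marg-1 and tnt-4 among pharynx markers, and cuticle genes (rol-6, bli-1, bli-2, dpy-7, dpy-13) among epidermis markers. One lithium-experiment library stood apart: replicate 2 of 20 C plain agar had the lowest summed germline markers of the 12 (3107 CPM, counts scaled to library size, against 6093 and 6419 in its replicates) and the highest summed neuron markers (542 CPM against 348 and 353). On ice, letters B and H stood apart, with summed neuron markers of 190 to 274 CPM against 91.7 to 123 in the other letters. Values without these libraries or letters are given beside the results they move most.

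Per kilobase of exon, hpl-2 was the highest of the 10 and the low end was held by synaptic and kinase genes. In the lithium experiment the median levels over 12 libraries were 52.3 CPM per kilobase for hpl-2, 15.6 for msi-1, 10.8 for sek-1, 9.23 for crh-1, 7.84 for magi-1, 5.87 for nsy-1 and 2.41 for tir-1. The 3 lowest there were ncs-1 at 0.924, jnk-1 at 0.626 and glr-1 at 0.0403 CPM per kilobase. Over the 18 ice libraries hpl-2 led again, at 24.3 CPM per kilobase, tir-1 came next at 8.39, and jnk-1, ncs-1 and glr-1 were again lowest at 0.231, 0.218 and 0.106. The experiments used different library kits and were scaled separately, so the order within each can be read and levels are not compared between them. The raw counts behind the low genes were small: on ice ncs-1 had 0 to 14 counts in a library and glr-1 0 to 109, and in the lithium experiment they had 5 to 25 and 0 to 34.

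**Figure D1:**
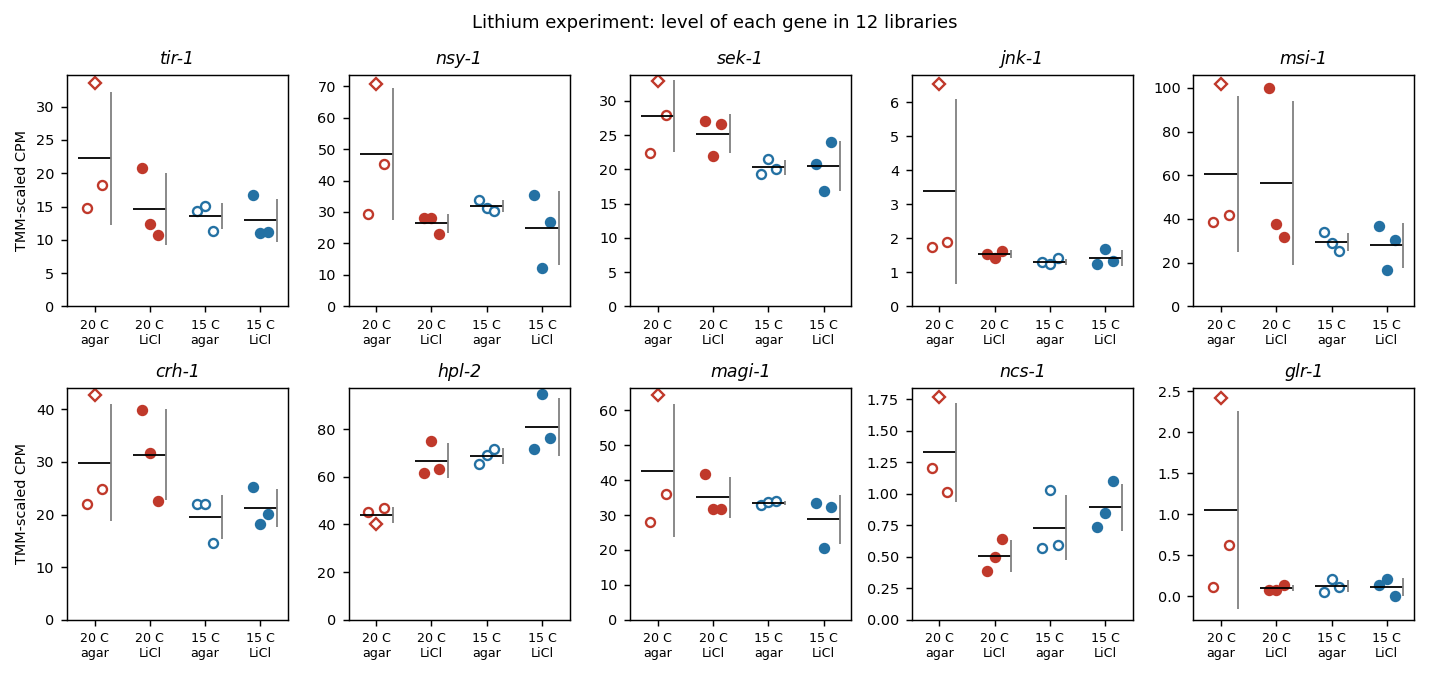
Levels of the 10 genes in the lithium experiment, as TMM-scaled CPM (y axis) in each library of the 4 groups (x axis); horizontal lines are group means, grey bars are the mean ± SD (n = 3), filled points are lithium libraries and the diamond is 20 C agar replicate 2. The diamond is the highest point of every panel except hpl-2, where it is the lowest, and in hpl-2 the 3 lithium points at 20 C (61.7 to 75.1 CPM) lie above the 3 agar points (40.3 to 46.7).

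The first comparison set worms kept on lithium at 20 C beside worms kept on plain agar at 20 C. One of the 9 genes that passed the filter on low counts was higher with lithium, hpl-2, and 1 was lower, ncs-1. In that comparison 12.2% of the 12392 genes tested were called at an adjusted p below 0.05, and the 2 of 9 are to be read beside that share. The kinase cascade, msi-1, crh-1 and magi-1 were not called, and glr-1 did not pass the filter.

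The level of hpl-2 on plain agar at 20 C was 45.2, 40.3 and 46.7 CPM in the 3 libraries and 61.7, 75.1 and 63.2 CPM with lithium. The groups did not overlap, and the means were 44.1 ± 3.36 and 66.7 ± 7.33 CPM (SD, n = 3 each). The log2 fold change was 0.60 (SE 0.15, edgeR adjusted p = 0.031). The direction was the same in all 6 fits that left out 1 library (0.47 to 0.66), while the call held in 1 of them, without agar replicate 1 (adjusted p = 0.027), and was lost in the other 5 (up to 0.154 without lithium replicate 2). Summed germline markers moved the same way: they were 3107 to 6419 CPM on agar and 9319 to 10319 CPM with lithium, with none of the 16 markers at 0 and 6 of the 16 called higher. The part of the germline in the hpl-2 difference was not tested.

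For ncs-1, the calcium sensor, the 20 C agar libraries held 1.201, 1.77 and 1.01 CPM and the lithium libraries 0.388, 0.499 and 0.640 CPM. Every agar library was above every lithium library, but the values rest on 21 to 25 counts per agar library and 5 to 9 per lithium library. The log2 fold change was -1.36 (SE 0.41, edgeR adjusted p = 0.0497). All 6 fits with 1 library left out kept the direction (-1.55 to -1.10) and none kept the call (adjusted p 0.0507 to 0.143). Another size-factor method (RLE) gave 0.051 and DESeq2 gave 0.082, so the call sits on the threshold.

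The cascade of tir-1, nsy-1, sek-1 and jnk-1 leaned lower with lithium at 20 C, without a call. NSY-1's gene had 29.2, 70.8 and 45.1 CPM on agar and 28.2, 28.1 and 22.9 CPM with lithium, groups that did not overlap (log2 fold change -0.87, SE 0.35, adjusted p = 0.109). The level of jnk-1 was 1.75, 6.52 and 1.88 CPM on agar and 1.55, 1.43 and 1.64 CPM with lithium, also without overlap (-1.12, SE 0.46, adjusted p = 0.115). Most of that difference lay in agar replicate 2, the library with low germline markers and high neuron, pharynx, muscle and epidermis markers. Without it the log2 fold changes were -0.49 for nsy-1 and -0.24 for jnk-1 in edgeR (adjusted p = 0.401 and 0.657). Without agar replicate 1, in contrast, both were called, at -1.12 (adjusted p = 0.035) and -1.42 (adjusted p = 0.040). The adaptor gene tir-1 had 14.9, 33.6 and 18.3 CPM on agar and 20.8, 12.4 and 10.7 CPM with lithium, overlapping groups (-0.60, SE 0.34, adjusted p = 0.224; -0.18 without agar replicate 2). The gene for SEK-1 varied least, from 22.4 to 32.9 CPM on agar and from 21.9 to 26.99 CPM with lithium (-0.14, 95% interval -0.57 to 0.29, and 0.00 without agar replicate 2).

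The musashi gene msi-1 showed the widest spread among the 3 lithium libraries at 20 C. It had 38.5, 102 and 41.6 CPM on agar and 99.8, 37.6 and 31.9 CPM with lithium, so 1 library of each group lay far above its replicates and the groups overlapped. The log2 fold change was -0.10 (95% interval -1.11 to 0.90), and the same 2 libraries had the highest summed neuron markers of the 12 (542 and 439 CPM). The CREB gene crh-1 had 22.1, 42.7 and 24.9 CPM on agar and 39.9, 31.7 and 22.6 CPM with lithium (0.07, 95% interval -0.56 to 0.70). For the scaffold gene magi-1 the ranges were 28.0 to 64.3 CPM and 31.7 to 41.9 CPM (-0.28, 95% interval -0.89 to 0.33). The groups overlapped for all 3 genes, and the intervals leave room for changes in either direction. Without agar replicate 2 the values were 0.49 for msi-1, 0.42 for crh-1 and 0.14 for magi-1, so msi-1 and magi-1 turned positive. The receptor gene glr-1 had 2, 34 and 13 counts on agar and 1, 1 and 2 with lithium, and 34 of the 49 agar counts lay in replicate 2.

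At 15 C the same comparison gave no call among the 9 genes, against 0.387% of all genes called (48 of 12392). For hpl-2 the agar libraries held 65.2, 69.3 and 71.6 CPM and the lithium libraries 71.6, 94.6 and 76.1 CPM, groups that touched at 71.6 CPM without crossing (0.23, SE 0.15, adjusted p = 0.449). The counts of ncs-1 gave 0.568, 1.03 and 0.597 CPM on agar and 0.734, 0.845 and 1.10 CPM with lithium, a log2 fold change of 0.32 (SE 0.41). For nsy-1 the value was -0.34 (95% interval -1.11 to 0.42), with 1 lithium library at 12.4 CPM and the others at 35.5 and 26.8 CPM. Whether lithium acted differently at the 2 temperatures was tested directly by the interaction, the effect at 15 C minus that at 20 C. Of all genes 0.0% were called in edgeR (1261 of 12392 had an unadjusted p below 0.05, and DESeq2 called 0), and the largest member value was that of ncs-1 at 1.68 (SE 0.58, unadjusted p = 0.013, adjusted p = 0.481). The interaction of hpl-2 was -0.37 (95% interval -0.82 to 0.09), so the loss of its call at 15 C does not show a smaller effect there.

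Cultivation at 15 C was then compared with 20 C on plain agar, the contrast between worms that tolerate cold and worms that do not. It shares the 20 C agar libraries with the lithium comparison at 20 C, so the 2 sets of values are not independent. Again hpl-2 was called higher, and it was the only call among the 9, against 9.97% of all genes called. The 15 C libraries (65.2, 69.3 and 71.6 CPM) all lay above the 20 C libraries (45.2, 40.3 and 46.7 CPM), with a log2 fold change of 0.64 (SE 0.15, edgeR adjusted p = 0.034). The call held without 20 C agar replicate 1 (0.037) or 3 (0.029) and was lost without any of the other 4 libraries (adjusted p 0.064 to 0.171, log2 fold change 0.58 to 0.68). Summed germline markers were again higher, 7605 to 7864 CPM at 15 C against 3107 to 6419 CPM at 20 C, with 16 of 16 markers above 0 in log2 fold change and none called.

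The other 8 genes had negative values, none of them called, and 4 of them had groups that did not overlap (jnk-1, msi-1, crh-1 and sek-1). For crh-1 the margin was narrow, 22.0003 CPM at most at 15 C against 22.0624 CPM at least at 20 C. The share of all genes with groups apart was not computed, so the 4 cannot be set beside it. In edgeR 39.7% of all genes had an unadjusted p below 0.05 here, as did 5 of the 9 members. The largest change of the 8 was that of jnk-1, with 1.31, 1.23 and 1.41 CPM at 15 C against 1.75, 6.52 and 1.88 CPM at 20 C. Its log2 fold change was -1.34 (SE 0.47, edgeR adjusted p = 0.071), and -0.46 without 20 C agar replicate 2. It was called without 20 C agar replicate 1 (adjusted p = 0.038) or 3 (0.029). For msi-1 the 15 C libraries held 33.9, 29.0 and 25.4 CPM (-1.04, SE 0.47, adjusted p = 0.121; -0.44 without that library). Values of the rest were -0.89 for ncs-1, -0.72 for tir-1, -0.61 for crh-1, -0.60 for nsy-1, -0.45 for sek-1 and -0.35 for magi-1. Without 20 C agar replicate 2 they were -0.64 for ncs-1, -0.29 for tir-1, -0.27 for crh-1, -0.22 for nsy-1 and -0.31 for sek-1, and magi-1 turned to 0.06. Summed neuron markers were also lower, 273 to 301 CPM at 15 C against 348 to 542 CPM at 20 C. Neuron markers were not alone in this. Median log2 fold changes were -0.56 for neuron, -1.02 for pharynx, -0.75 for intestine, -0.61 for muscle and -0.57 for epidermis markers. That of germline markers was positive (0.565). The part of these markers in the values of the members was not tested.

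Under lithium, 15 C against 20 C gave no call among the 9, and 0.0% of all genes were called in edgeR (1445 had an unadjusted p below 0.05, and DESeq2 called 84). With the replicate number as a block, edgeR called 3 genes, none of them a member. The largest value was -1.01 for msi-1 (95% interval -2.03 to 0.02), whose lithium libraries at 15 C held 36.9, 16.5 and 30.5 CPM. One library carried most of it: without 20 C lithium replicate 1 (99.8 CPM) msi-1 was at -0.31, smaller in size than crh-1 (-0.35) and ncs-1 (0.63) in the same fit. For hpl-2 the value was 0.28 (95% interval -0.05 to 0.60), and ncs-1 was at 0.79 (95% interval -0.12 to 1.70) with groups that did not overlap. In the order of group means, hpl-2 ran from 15 C with lithium (80.8 CPM) through 15 C agar (68.7) and 20 C with lithium (66.7) to 20 C agar (44.1), and the middle pair overlapped. For tir-1, sek-1, msi-1, crh-1, magi-1, ncs-1 and glr-1, each group overlapped the next one in the order, and so did the 6 ice groups for all 10 genes.

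**Figure D2:**
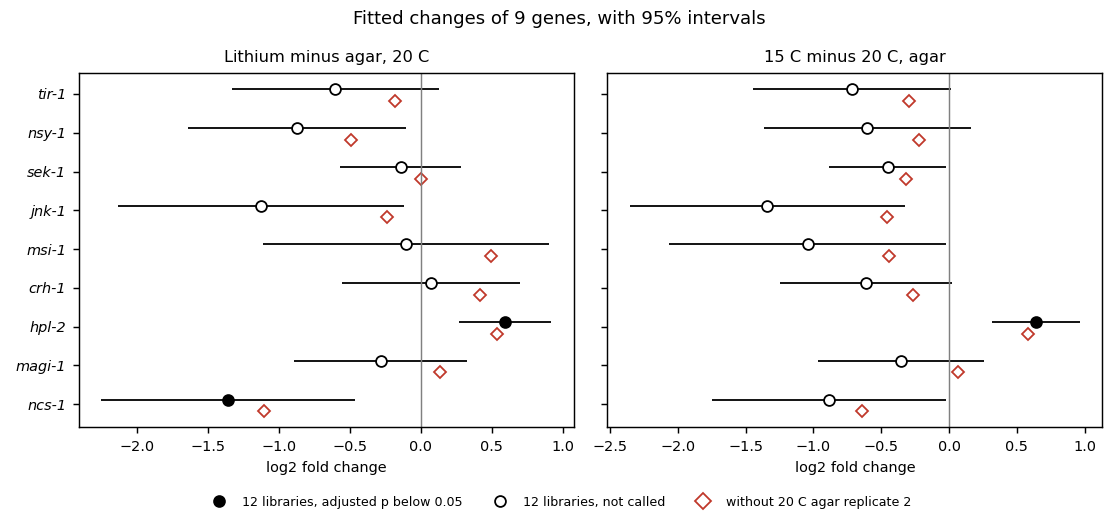
Log2 fold changes (x axis) of the 9 genes tested (y axis) for lithium minus agar at 20 C (left) and 15 C minus 20 C on agar (right), with 95% intervals of the fit of 12 libraries; filled circles passed the adjusted p threshold of 0.05, and diamonds are the values without 20 C agar replicate 2. hpl-2 lies to the right of 0 in both (0.60 and 0.64), and leaving out the library brings jnk-1 from -1.12 to -0.24 on the left and from -1.34 to -0.46 on the right.

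Genes that work beside the 10 were followed as 7 lists, and the counts for lithium at 20 C stand beside the 12.2% of all genes called there. In the p38 and JNK cascades, lithium at 20 C gave 1 call of 18 tested, mek-1, a MAP kinase kinase, at 90.8 ± 7.08 CPM against 65.7 ± 4.93 on agar (SD, n = 3; log2 fold change 0.47, adjusted p = 0.040). The list's median was -0.30, beside -0.07 over all genes. The list of Arp2/3 and actin regulators holds subunits of the complex on which MSI-1 acts and other actin genes. Of its 17 genes 2 were higher: abi-1, a WAVE complex subunit (0.72, edgeR adjusted p = 0.031), and arx-2, an Arp2/3 subunit (0.55, edgeR adjusted p = 0.040). The list's median was 0.24. Among heterochromatin genes 2 of 14 were higher, hda-1, a histone deacetylase (0.58, adjusted p = 0.033), and cec-3, a chromodomain protein (0.61, adjusted p = 0.034), with a list median of 0.02. Germline markers had positive values in the same comparison in 16 of 16 (median 0.60, 6 called higher), and their part in the heterochromatin and Arp2/3 values was not tested. All 5 of these genes lost the call when agar replicate 2 or any lithium library was left out. Of the 6 fits with 1 library left out, the call held in 2 for abi-1 and cec-3. It held in only 1 for arx-2, hda-1 and mek-1. No gene was called among cAMP and CREB signalling (14 tested, median -0.41), the glutamate synapse (14, median -0.63), synaptic adhesion and scaffold genes (17, median -1.05) or neuronal calcium sensors and partners (8, median -0.46). All 14 glutamate synapse genes had negative values, as did 15 of 16 neuron markers (median -0.67, none called). Medians were also negative for pharynx (-1.77, 1 called lower), epidermis (-1.13, 3 called lower), intestine (-0.36, 1 called lower) and muscle markers (-0.15, none called). The part of these markers in the values of the lists was not tested.

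At 15 C against 20 C on agar 3 of the 7 lists held calls, all of them lower, where 9.97% of all genes were called and 963 of those 1235 calls were lower. In the p38 and JNK cascades 3 of 18 were lower: jun-1, the c-Jun transcription factor (-1.64, adjusted p = 0.047), kgb-1, a JNK-family kinase (-1.13, adjusted p = 0.047), and vhp-1, a phosphatase that acts on JNK-family kinases (-1.74, adjusted p = 0.049). The counts of jun-1 are uncertain, since it shares 501 bases with C16D2.1 on its own strand, and cal-1 shares 107 bases with lgmn-1 on the opposite strand. Among calcium sensors and partners 3 of 8 were lower, ncs-6 (-1.93, adjusted p = 0.038), cal-1 (-1.14, adjusted p = 0.042) and cal-2 (-1.16, adjusted p = 0.046). In the glutamate synapse list glt-3, a glutamate transporter, was lower (-1.13, adjusted p = 0.046; 1 of 14). Each of these 7 calls held without 20 C agar replicate 1 or 3 and was lost without any other library. Without 20 C agar replicate 2, kgb-1 was at -0.70, vhp-1 at -1.16, jun-1 at -1.17, cal-1 at -0.73, cal-2 at -0.74, ncs-6 at -1.51 and glt-3 at -0.91. Neuron markers were negative in 16 of 16 (median -0.56, 1 called lower). Medians were also negative for pharynx (-1.02), intestine (-0.75, 3 called lower), muscle (-0.61) and epidermis (-0.57) markers. All 14 heterochromatin genes had positive values (median 0.50, beside -0.07 over all genes) and none was called. Germline markers were also positive in 16 of 16 (median 0.56, none called), and the part of any marker list in these values was not tested. The cAMP and CREB, Arp2/3, heterochromatin and synaptic adhesion lists had no call here. In the other 12 comparisons no gene of the 7 lists was called.

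On ice, each replicate letter of a temperature labels a naive and a conditioned library. For tir-1 at 20 C, the conditioned and naive libraries held 126 and 119.5 CPM in letter A, 11.1 and 9.30 CPM in letter E, and 55.6 and 42.6 CPM in letter F. At 15 C they held 525 and 546 CPM in letter B, 25.4 and 26.4 CPM in letter G, and 127 and 123 CPM in letter H. In shifted worms they held 40.3 and 46.1 CPM in letter C, 31.4 and 18.99 CPM in letter D, and 195 and 173 CPM in letter H. Most partners were close and letters were far apart: the highest letter mean was 52.4 times the lowest, while the median fold between partners was 1.13.

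That spread of tir-1 was wide beside most genes. Over the 6201 genes with a median letter level of at least 10 CPM, the median ratio of the highest to the lowest letter was 3.76, and 81 genes (1.31%) reached or passed the ratio of tir-1. The median fold between partners over these genes was also 1.13. Ratios of the other members were 11.04 for jnk-1, 9.63 for nsy-1, 7.57 for ncs-1, 5.71 for crh-1, 4.32 for msi-1, 2.95 for hpl-2, 2.89 for magi-1 and 1.53 for sek-1. The median letter levels of jnk-1 (0.449 CPM), ncs-1 (0.196) and crh-1 (7.51) were below 10 CPM, so these are not to be set beside the 3.76. Those of jnk-1 and ncs-1 also rest on few counts. Letter B was the highest letter for tir-1, nsy-1, jnk-1, msi-1, crh-1, magi-1 and glr-1 and the lowest for hpl-2 (19.04 CPM, against 56.1 CPM in letter E). It was also a letter with high summed muscle markers (21198 and 21267 CPM, against 3105 to 9480 CPM in letters A, C, D, E, F and G and 11716 to 22267 CPM in letter H), with none of the 12 markers at 0. Letters belong to 1 temperature each, except H, so letter and temperature cannot be told apart beyond the spread between letters.

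**Figure D3:**
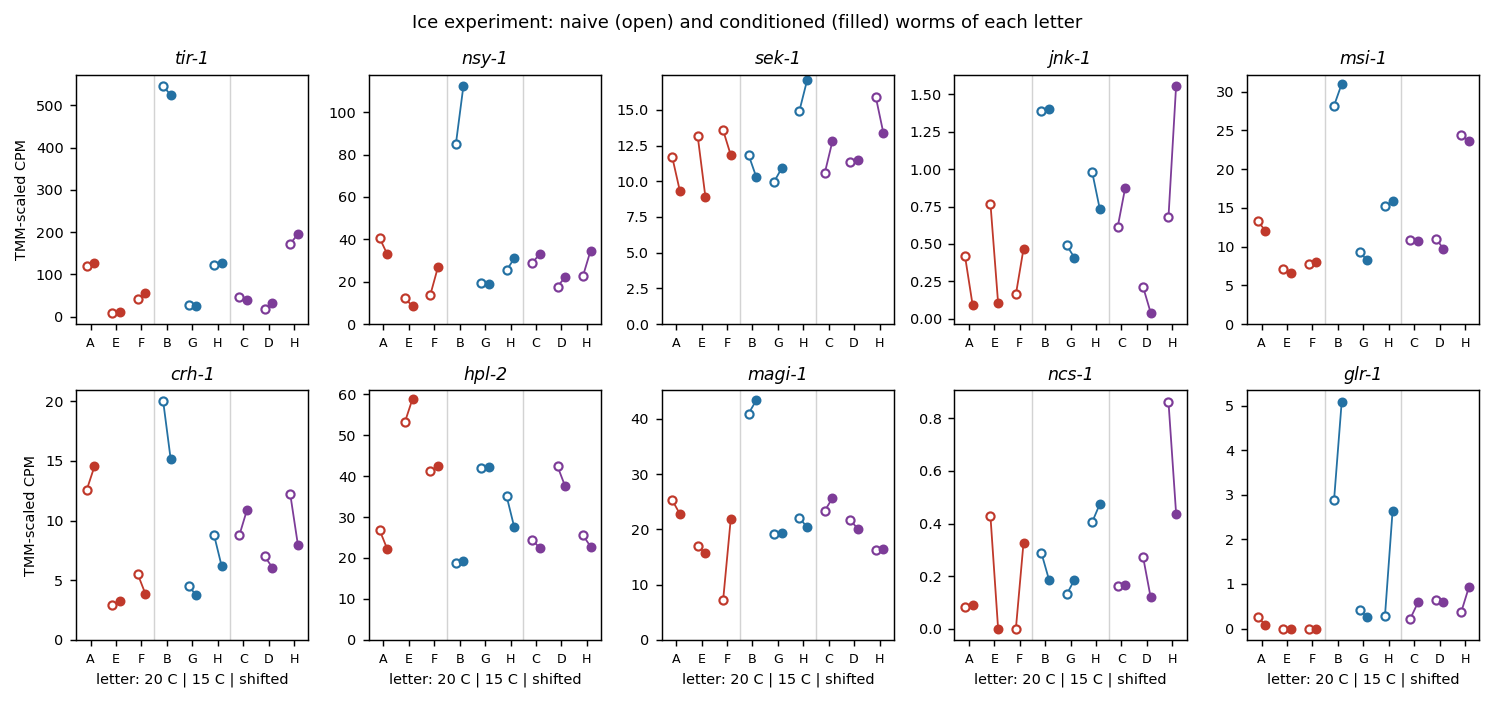
Levels of the 10 genes on ice, as TMM-scaled CPM (y axis) for the naive (open) and conditioned (filled) library of each letter (x axis; 20 C red, 15 C blue, shifted purple), with a line joining partners. For tir-1 partners lie close together while letters run from about 10.2 CPM in E to 535 CPM in B, and glr-1 is at 0 in both libraries of letters E and F at 20 C.

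Temperature on ice was tested on the sums of each letter's naive and conditioned counts, 3 sums a group. For 15 C against 20 C, 0.0% of the 15412 genes were called by edgeR and none of the 10 members (1945 genes had an unadjusted p below 0.05, and DESeq2 called 184). The glutamate receptor gene glr-1 stood out by its counts. At 20 C the 6 libraries held 0, 1 and 0 counts in conditioned worms and 0, 3 and 0 in naive worms of letters E, A and F. At 15 C they held 7, 61 and 109 in conditioned and 13, 8 and 50 in naive worms of letters G, H and B, so every library at 15 C was above every library at 20 C, also in CPM (lowest 0.260 at 15 C, highest 0.2501 at 20 C). The fitted log2 difference was 5.21 (SE 1.37, unadjusted p = 0.0031, edgeR adjusted p = 0.390), a size that depends on the prior count because 2 of the 3 sums at 20 C are 0. The margin in CPM was narrow, and the 0.2501 CPM rests on 3 counts. The share of all genes with groups apart was not computed here. The call depended on the method: the adjusted p was 0.0097 in DESeq2 and 0.00082 in edgeR with no filter on low counts. That last setting called 972 genes. Pharynx markers moved with it, at 33.7 to 299.6 CPM at 15 C and 8.79 to 31.9 CPM at 20 C, with up to 3 of 8 markers at 0 in a 20 C library. Summed neuron markers overlapped, at 91.7 to 274 CPM at 15 C and 95.3 to 123 CPM at 20 C. Median log2 fold changes were also positive for neuron (0.95), epidermis (1.06), muscle (0.67) and intestine (0.32) markers. That of germline markers was negative (-0.38). The part of these markers was not tested.

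The other members had positive values at 15 C against 20 C on ice, except hpl-2 at -0.36 (95% interval -1.41 to 0.69). They were 1.99 for tir-1 (SE 1.13, adjusted p = 0.440), 1.41 for jnk-1, 1.19 for nsy-1, 1.03 for msi-1, 0.80 for ncs-1, 0.66 for magi-1, 0.52 for crh-1 and 0.14 for sek-1. The mean CPM per letter of jnk-1 did not overlap between the groups, by a narrow margin on few counts. Its lowest value at 15 C was 0.4487 CPM (letter G) and its highest at 20 C was 0.4365 CPM (letter E). Those of the rest overlapped. Much of these differences lay in letter B: without it, tir-1 was at 0.37, nsy-1 at 0.13, msi-1 at 0.46, jnk-1 at 0.96, magi-1 at 0.23 and glr-1 at 3.98, and crh-1 turned to -0.19. Leaving out letter H, an alternative chosen after seeing the data, turned sek-1 to -0.02 and kept the other directions. The median of the 10 was 0.92, beside 0.14 over all genes, and the neuron marker median was 0.95. RLE size factors brought the median of all genes to 0.03 and sek-1 to 0.04, with each member's direction kept.

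Shifted worms, with 2 hours back at 20 C, were compared with worms from 15 C, since the shift is used in the study to reverse cold tolerance. None of the 10 was called and 0.0% of all genes were (512 had an unadjusted p below 0.05, and DESeq2 called 1). Of the 10 members 9 had negative values, led by glr-1 at -1.79 (95% interval -4.21 to 0.63) and tir-1 at -1.49 (95% interval -3.95 to 0.97), and ncs-1 was at 0.22. With RLE size factors sek-1 turned from -0.01 to 0.06. Letter B decided the direction of several: without it crh-1 was at 0.53 (from -0.18), msi-1 at 0.28 (from -0.29), tir-1 at 0.15 and nsy-1 at 0.14 (from -0.91). With letter H left out instead, tir-1 was at -3.09, sek-1 turned to 0.04 and ncs-1 to -0.12.

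Against worms kept at 20 C, the shifted worms again gave no call, with 0.0% of all genes called by edgeR (1855 had an unadjusted p below 0.05, and DESeq2 called 999). The counts of glr-1 in shifted worms were 14, 19 and 15 in conditioned and 7, 6 and 21 in naive libraries of letters C, H and D, beside 0 to 3 counts per library at 20 C. In CPM single libraries overlapped slightly (lowest shifted 0.225, naive letter C, against 0.2501 at 20 C, naive letter A), while the mean CPM per letter did not. The log2 difference was 3.43 (SE 1.32, unadjusted p = 0.025, edgeR adjusted p = 0.338), with the same dependence on the prior count. It passed the threshold only in edgeR with no filter on low counts (adjusted p = 0.041), a setting that called 1320 genes. Values of tir-1 turned with letter H, from 0.50 (95% interval -1.92 to 2.92) to -0.75 without it. The other 8 members lay between -0.47 for hpl-2 and 1.03 for ncs-1, with overlapping groups.

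Training with butanone was compared as conditioned against naive worms, at each temperature and over the 3 temperatures. None of the 10 was called in any of the 6 comparisons, and edgeR called 0.0% of the 14864 genes in each, as DESeq2 called 0. Genes with an unadjusted p below 0.05 numbered 32 for the mean of the 3 temperatures, 60 at 20 C, 17 at 15 C and 7 in shifted worms, and 42 and 9 for the differences of the training effect between temperatures. This edgeR fit did not pair the libraries of a letter. The shares were 0.404% of genes at most, fewer than the threshold passes when nothing differs, so the lack of calls in this fit says little. Directions within letters were mixed: conditioned exceeded naive in 6 of 9 letters for tir-1 and nsy-1, in 5 for magi-1 and ncs-1, in 4 for sek-1, jnk-1 and hpl-2, in 3 for msi-1 and crh-1, and in 4 for glr-1, which had 2 letters at 0. The median fold between partners was smallest for msi-1 (1.07) and largest for jnk-1 (2.13) and glr-1 (1.74), genes with few counts. Single pairs could lie further apart than their gene's median, as in letter F at 20 C, where magi-1 had 7.23 CPM in naive and 21.9 CPM in conditioned worms and nsy-1 13.9 and 27.02 CPM. The largest difference in proportion for crh-1 was in shifted letter H (12.2 CPM naive, 7.98 CPM conditioned), and for tir-1 in shifted letter D (18.99 CPM naive, 31.4 CPM conditioned).

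With the letter as a block, which removes the spread between letters, the mean training effects had much smaller errors and were still not called. They were -0.21 for crh-1 (SE 0.13), 0.22 for nsy-1 (SE 0.13), 0.15 for tir-1 (SE 0.10), 0.15 for magi-1 (SE 0.15), -0.10 for sek-1 (SE 0.10), -0.09 for hpl-2 (SE 0.08) and -0.04 for msi-1 (SE 0.09), with the lowest edgeR adjusted p among the 10 at 0.691. The counts of jnk-1, ncs-1 and glr-1 were few and their SEs larger, at 0.43, 0.67 and 1.24.

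**Figure D4:**
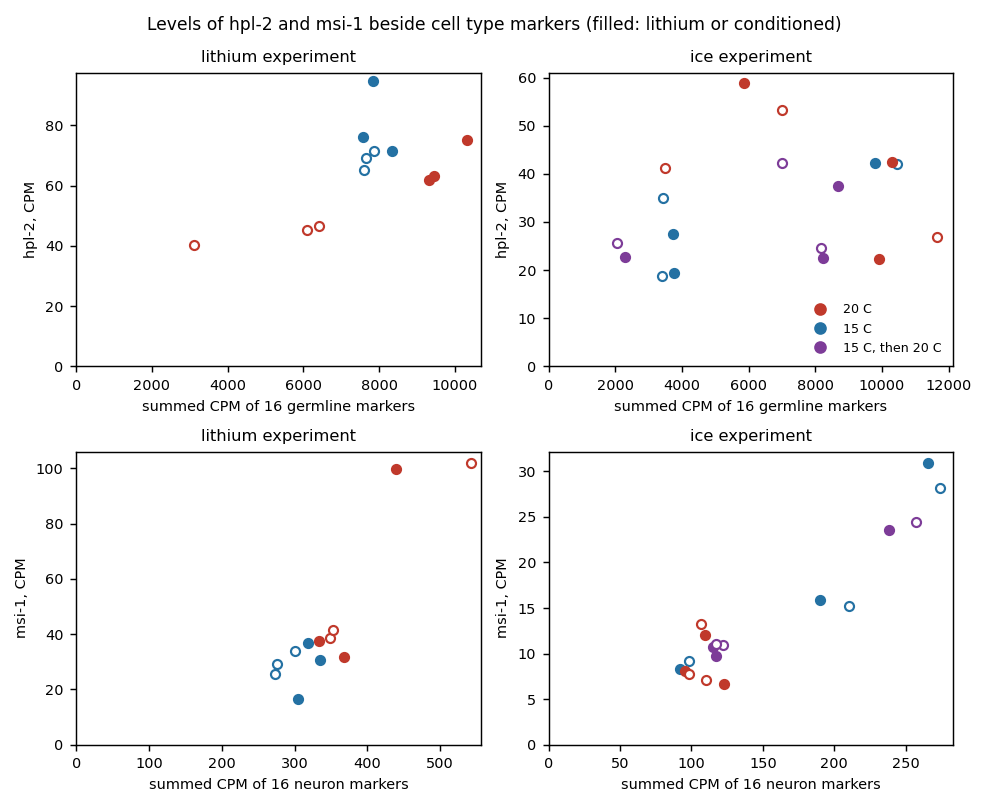
Levels of hpl-2 (top) and msi-1 (bottom) in CPM (y axis) beside the summed CPM of 16 germline or 16 neuron markers (x axis), with 1 point per library of the lithium experiment (left) and the ice experiment (right); filled points are lithium or conditioned libraries and colours are temperatures. In the lithium experiment the library with the fewest germline markers (3107 CPM) has the lowest hpl-2 (40.3 CPM). The highest hpl-2 there (94.6 CPM) is at 7845 CPM of germline markers, below the most (10319 CPM, hpl-2 at 75.1 CPM). On ice the libraries with the fewest and the most germline markers (2052 and 11653 CPM) have hpl-2 at 25.5 and 26.8 CPM. In both experiments the libraries with the most neuron markers (542 and 274 CPM) have msi-1 at 102 and 28.2 CPM.

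The genes whose levels most resembled each member were found by Pearson correlation of log2 CPM, taken over the 12 lithium libraries and the 18 ice libraries, with the lower of the 2 as the measure, among 11988 genes. It describes these libraries, in which ice partners share a letter and depth differs. The closest to tir-1 were rfip-1 (0.95) and fhod-1 (0.94), to nsy-1 hlb-1 and klp-4 (both 0.94), and to jnk-1 ltd-1 (0.85) and D2021.4 (0.81). For sek-1 they were F25E2.3 (0.73) and F32D8.12 (0.72). The closest to msi-1 were hlh-30 (0.96) and nhx-5 (0.95), to crh-1 clp-4 (0.88) and Y43F8C.3 (0.87), and to hpl-2 gfl-1 (0.95) and snpn-1 (0.94). Those of magi-1 were miz-1 (0.90) and R148.5 (0.87), and those of ncs-1 were M176.5 (0.72) and C14B9.2 (0.70). The lowest values belong to sek-1, which varied least on ice, and to ncs-1, which had few counts.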

How the data were processed

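The deposited values were raw counts per gene, 1 table per experiment. The submitters' processing notes name HISAT2, HTSeq, cutadapt, FastQC and DESeq2 and build ce11, without versions. Per the labels, the lithium kit was directional, and ice libraries came from either SMART-Seq HT or SMART-Seq v4 cDNA with Nextera XT. The kit of each ice library and whether counting used strand are not given in the sources used here, so reads of overlapping opposite-strand genes may be mixed. All columns were matched to samples by title.

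R 4.3.3 was used, with the package data.table in version 1.17.8. Fits were made in edgeR 4.0.16 (with limma 3.58.1) using TMM scaling, filterByExpr and the robust quasi-likelihood test, two-sided, adjusted by Benjamini-Hochberg over all genes tested at 0.05. The lithium experiment was 1 fit of 12 libraries (12392 genes). Temperature on ice was fitted on 9 sums of the naive and conditioned counts of a letter (15412 genes), training on 18 libraries (14864 genes). CPM are TMM-scaled, and log2 CPM have a prior count of 2. The same steps were checked on simulated counts. For the ice fits the simulated libraries were independent and their spread was smaller than in the data. The common biological coefficient of variation of the data was 0.645 for the sums and 0.660 for the 18 libraries. That check therefore does not show how the ice fits behave at their own spread. Alternatives were RLE size factors, no low-count filter, DESeq2 1.42.0, each library left out, the replicate number as a block, and fits of the compared groups alone.

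Replicate letters on ice were found to pair the naive and conditioned libraries (residual correlation 0.471 to 0.897 in 9 of 9 pairs). In the lithium experiment every same-number pair exceeded 0.1 for the groups of lithium at 15 C (0.166 to 0.252) and of 15 C against 20 C under lithium (0.195 to 0.265), but not for lithium at 20 C or 15 C against 20 C on agar. The members and lists were chosen with earlier results of these data known. Of 191 list genes 189 were matched by symbol. Named genes are the 10 members, up to 3 called genes of each pathway list per comparison by adjusted p, and the 2 genes most like each member. Ensembl release 115 gave symbols and coordinates.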

Additional observations from a re-analysis of the deposited data

How the results depend on the processing

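The cause of each change below was not tested. Counts of called members: lithium at 20 C gave 2, but 1 with RLE size factors, with DESeq2 and with the replicate block, 0 with no low-count filter and 0 in a fit of the compared groups alone, and 0 to 3 with 1 library left out. For 15 C against 20 C on agar the 1 call became 0 with no filter and 0 in the fit of the compared groups alone, and 0 to 2 with 1 library left out. On ice, 15 C against 20 C gave 1 with no filter and 1 with DESeq2 (glr-1), and shifted against 20 C gave 1 with no filter.

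Counts over all genes moved more. For lithium at 20 C (1516) they were 984 with no filter, 2575 with DESeq2, 0 in the 2-group fit and 5 to 2855 with 1 library left out. At 15 C (48) they were 390 with DESeq2, 264 in the 2-group fit and 11 to 21 with 1 left out. For 15 C against 20 C on agar (1235) they were 711 with no filter, 2987 with DESeq2, 0 in the 2-group fit and 0 to 2828 with 1 left out. Under lithium (0) they were 11 with no filter, 84 with DESeq2, 3 with the replicate block and 0 to 1 with 1 left out. On ice, where all were 0, 15 C against 20 C gave 972 with no filter, 184 with DESeq2 and 48 on 18 unsummed libraries. Shifted against 15 C gave 284 with no filter and 1 with DESeq2. Shifted against 20 C gave 1320 with no filter, 999 with DESeq2, 1143 unsummed, 470 with letter H left out (chosen after seeing the data), and 0 to 554 with 1 letter left out, the 554 without shifted letter H. Training with no filter gave 1 for the mean, 2 at 20 C, 2 at 15 C, and 1 for each difference of the training effect.

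In the lithium experiment the numbers share no stated origin. Not every same-number pair exceeded a residual correlation of 0.1 for lithium at 20 C (-0.235 to 0.341) or for 15 C against 20 C on agar (0.027 to 0.346). With 3 libraries a group, these correlations do not settle whether the numbers pair the libraries. With the replicate block hpl-2 stayed called in both comparisons (adjusted p = 0.036 and 0.035) and ncs-1 missed the threshold (0.0503). For lithium at 15 C and for 15 C against 20 C under lithium, where every same-number pair exceeded 0.1, the block changed no member's call. With letter as a block on ice, no training call among the 10 changed. No paired analysis was possible because 20 C and 15 C share no letters for temperature on ice, and 15 C and shifted worms share only H. Of 1842 single-gene values under alternatives, 237 changed sign, 164 of them in training comparisons, and none of these was called in either fit. Few counts limit ncs-1, jnk-1 and glr-1.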
